A study of Mus musculus with 18 samples.

Results

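The 10 loci described here are the mouse miRNA hairpins most often linked to epithelial cells: the 5 hairpins of the miR-200 family (Mir200a, Mir200b, Mir429, Mir200c and Mir141), the 3 of the miR-183 cluster (Mir182, Mir183 and Mir96), Mir203 and Mir205. They were taken by gene symbol, a rule that uses no measured value although earlier results of these data were known, and all 10 were found among the 2009 hairpin loci counted in each library. Small RNA was sequenced in 18 libraries from cultures of adipose stromal cells (ASC), the fibroblast-like mesenchymal cells of fat, and from the extracellular vesicles (EV) those cells release. All libraries came from adult mice of the strain labelled NGL. There were 5 libraries of EVs from cells primed with interferon gamma for 24 h (primed EV), 5 of EVs from unprimed cells (naive EV), 4 of primed cells (primed ASC) and 4 of unprimed cells (naive ASC). All of the cultures then spent 48 h in alpha MEM with 2% FBS depleted of EVs. Cell RNA was isolated with TRIzol and an RNeasy kit and vesicle RNA with a SeraMir column kit, so vesicle and RNA isolation method cannot be told apart in any comparison of EV with ASC. The labels do not say that replicates came from separate animals or cultures, so every p-value measures the spread between these libraries only, which may be technical. Each library was named here by group and replicate. The number in the sample title equalled the replicate number except in naive EV 1 and naive ASC 1, whose titles carried 1+2, and in primed EV 1, whose title carried 5.

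A mature miRNA strand is loaded into an Argonaute protein and represses messenger RNAs that pair with its seed, the stretch of bases near its 5′ end. The miR-200 family is abundant in epithelia and represses Zeb1 and Zeb2, which themselves repress E-cadherin and the miR-200 genes. This mutual repression separates epithelial from mesenchymal cells, and stromal cells are commonly low in the family. The miR-183 cluster is known from sensory epithelia and neurons of the eye and inner ear, miR-203 from differentiating keratinocytes, and miR-205 from the basal cells of stratified and glandular epithelia.

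The mature strands usually held to be the guides are given because the miR-200 values in vesicles are described by seed group. They are RefSeq annotation for build GRCm38.p6, written 5′ to 3′, with the seed (bases 2 to 8) in capitals.
miR-200b-3p: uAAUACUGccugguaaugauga
miR-200c-3p: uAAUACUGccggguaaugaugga
miR-429-3p: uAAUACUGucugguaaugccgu
miR-200a-3p: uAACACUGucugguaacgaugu
miR-141-3p: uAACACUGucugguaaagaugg
miR-182-5p: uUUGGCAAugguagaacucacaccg
miR-183-5p: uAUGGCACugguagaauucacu
miR-96-5p: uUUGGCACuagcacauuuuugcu
miR-203-3p: gUGAAAUGuuuaggaccacuag
miR-205-5p: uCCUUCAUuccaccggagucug

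The first 3 of these strands share the seed AAUACUG and the next 2 share AACACUG. The seeds of the miR-200 groups differ at 1 base, written U4C from miR-200b-3p to miR-200a-3p with positions counted from 1 at the 5′ end. Within a seed group, miR-200b-3p and miR-200c-3p matched at 20 of 22 positions (U11G and A22G), and miR-200a-3p and miR-141-3p at 20 of 22 (C17A and U22G). miR-182-5p and miR-183-5p matched at 18 of 22 positions (U2A, A8C, C17U and A22U). Counts were given per hairpin and include both strands, so no count separates a 5p from a 3p strand, and the split of counts between near-identical hairpins depends on how the authors' counting placed short reads.

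The loci lie in 5 places of build GRCm38. Mir200b (chromosome 4, 156055674 to 156055763), Mir200a (156054896 to 156054985) and Mir429 (156053905 to 156053987) span 1859 bp on the minus strand within Ttll10, a tubulin ligase-like gene, and within the processed transcript Gm13648, with Mir429 in an exon of Gm13648. Mir200c (chromosome 6, 124718314 to 124718403) and Mir141 (124717914 to 124717985) span 490 bp on the minus strand within the antisense transcript Gm15884. Mir183 (chromosome 6, 30169668 to 30169737), Mir96 (30169446 to 30169551) and Mir182 (30165918 to 30165992) span 3820 bp on the minus strand between genes, with Nrf1 the nearest coding gene. Mir203 (chromosome 12, 112130880 to 112130955, plus strand) is intergenic, and Mir205 (chromosome 1, 193507463 to 193507530, minus strand) is in an exon of the lincRNA 4631405K08Rik. The clusters on chromosome 4 and at the 490 bp span each hold both miR-200 seeds.

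Libraries held 626951 to 3052942 counts in primed EV, 613448 to 2245823 in naive EV, 180812 to 895721 in primed ASC and 486237 to 926183 in naive ASC. A list of 13 mesenchymal and fibroblast miRNA loci took 71.7% ± 0.822 of counts in primed EV and 69.1% ± 1.33 in naive EV (SD, n = 5 each), and 45.9% ± 4.07 in primed ASC and 50.2% ± 9.92 in naive ASC (SD, n = 4 each). The 10 epithelial loci together took 0.565% ± 0.128 in primed EV and 0.731% ± 0.445 in naive EV (SD, n = 5 each), and 0.868% ± 0.373 in primed ASC and 1.48% ± 0.366 in naive ASC (SD, n = 4 each). Levels are given as CPM, read counts relative to a library total scaled by TMM, and a test used the 245 loci that passed a filter on low counts, which 9 of the 10 members did and Mir203 did not. Of the 12 mesenchymal loci tested, 3 were higher and 4 lower in naive EV than in naive ASC (adjusted p under 0.05, edgeR). In the primed comparison 5 were higher and 5 lower. Among all loci 33.5% were higher and 32.7% lower in the naive comparison, and 35.9% and 32.2% in the primed one. In these bulk samples, fewer cells of a type and less RNA per cell cannot be told apart.

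The members fell into an abundant pair and a set of rare loci. Mir182 held 82.35% of all counts of the 10 loci and Mir183 9.74%, followed by Mir205 at 5.71%. Mir200b held 0.744%, Mir141 0.596%, Mir429 0.343%, Mir200c 0.173%, Mir96 0.149%, Mir200a 0.145% and Mir203 0.0578%. The summed level of the members is therefore close to the level of Mir182. The 5 loci whose share of counts over the 18 libraries was most like that of the summed members were Mir103-1, Mir148b, Mir181b-1, Mir532 and Mir181a-1, with a profile overlap of 85.5 to 86.9, against a median of 71.4 for the other loci. Profile overlap adds, over libraries, the smaller of both loci's percent shares, and 100 means the same profile.

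Levels of Mir205 and the miR-200 loci were uneven between libraries of 1 group, and over all 18 libraries they differed with the number in the sample title. The highest Mir205 level was 113 times the lowest in primed EV, 177 times in naive EV, 24.7 times in primed ASC and 103 times in naive ASC. Mir141 spanned 65.3-fold in primed EV and 544-fold in naive EV, but 4.33-fold in primed ASC and 2.22-fold in naive ASC. Mir205 was at 45.1, 4.8, 545.5, 327.0 and 79.0 CPM in primed EV 1 to 5. It was at 10.8, 15.4, 925.5, 1911.8 and 363.7 CPM in naive EV 1 to 5. In cells it was at 40.0, 986.8, 772.1 and 49.7 CPM in primed ASC 2 to 5, and at 18.9, 1219.7, 1935.2 and 237.1 CPM in naive ASC 1, 3, 4 and 5. In each of the 4 groups the libraries numbered 3 and 4 held the highest Mir205. The lowest of each group were primed EV 2, naive EV 1, primed ASC 2 and naive ASC 1.

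Mir200b, the most abundant family member over all libraries, was at 5.6, 0.7, 90.5, 59.5 and 10.4 CPM in primed EV 1 to 5. It was at 0, 9.5, 128.1, 433.5 and 97.5 CPM in naive EV 1 to 5. Cells held 4.5, 40.3, 24.9 and 5.0 CPM in primed ASC 2 to 5, and 5.1, 110.7, 189.7 and 14.8 CPM in naive ASC 1, 3, 4 and 5. The libraries numbered 3 and 4 were again the highest of each group. Mir429, from the same cluster, was at 11.3, 0, 52.1, 65.0 and 2.1 CPM in primed EV 1 to 5 and at 0.5, 0, 97.4, 262.4 and 19.8 CPM in naive EV 1 to 5. It was at 0.9, 2.7, 0 and 0 CPM in primed ASC 2 to 5, and at 1.7, 26.5, 27.1 and 3.7 CPM in naive ASC 1, 3, 4 and 5. In primed ASC, where Mir429 had 2 counts in all, the libraries could not be ordered at this depth.

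**Figure D1:**
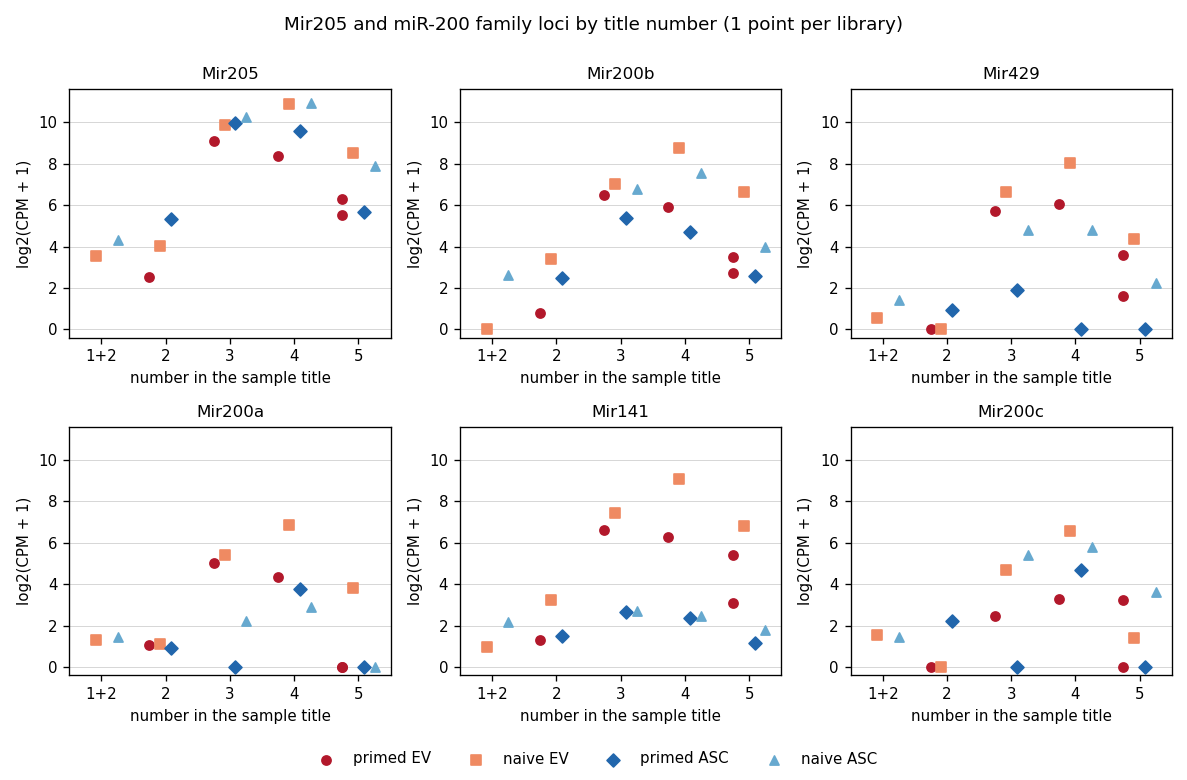
Level of Mir205 and the 5 miR-200 family loci, as log2(CPM + 1) on the vertical axis, against the number in the sample title, with 1 point per library and a colour and marker for each of the 4 groups. Mir205 and Mir200b were highest in the libraries numbered 3 and 4 in every group, while Mir141 was below 6 CPM in all 8 ASC libraries.

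The dependence on title number was put to a test that was added after these values had been seen, so it describes these 18 libraries. A model with group and title number found a difference between numbers for 21 of 245 loci, or 8.57%, at an adjusted p under 0.05 (edgeR quasi-likelihood F test, Benjamini-Hochberg over 245 loci). Of the 9 tested members 6 were among them. Mir205 ranked 1 of 245 (adjusted p = 1.5e-07), Mir429 2 (1.58e-05), Mir200b 3 (3.49e-05), Mir141 5 (0.000388), Mir200a 6 (0.000956) and Mir200c 11 (0.0063). Without naive EV 4, the library with the highest family levels, the call of Mir200c was lost (adjusted p = 0.0604) and the other 5 calls held. Mir182 (adjusted p = 0.0998), Mir183 (0.0998) and Mir96 (0.163) did not pass, though Mir182 passed without naive ASC 1, naive ASC 5 or primed ASC 5 (adjusted p down to 0.0226) and Mir183 without naive EV 5 (0.027). Mir182 also passed with no low-count filter (0.00967), after thinning all libraries to the shallowest (0.0396) and with limma-voom (0.0471), as did Mir183 with limma-voom (0.0486). The labels do not say what the number stands for.

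The title number test was also run within each kind of sample. In the 10 EV libraries alone 7 members differed between numbers, the same 6 and Mir182 (adjusted p = 0.0137), at a background of 9.8% of loci. In the 8 ASC libraries alone Mir205 was the 1 member that differed (adjusted p = 0.0203, edgeR), at a background of 0.816%, in a fit with 2 residual degrees of freedom. In that fit the miR-200 loci did not pass (adjusted p = 0.0656 for Mir200b to 0.973 for Mir141). The 15 other loci called over all 18 libraries included Mir139, Mir181a-2 and Mir31, picked here after their values were seen. Mir139 and Mir181a-2, like Mir205, were highest in the libraries numbered 3 and 4 in every group. Mir181a-2 was at 1777 and 1914 CPM in primed ASC 3 and 4, against 1250 CPM in primed ASC 2. For Mir139 the margin was small in naive EV, at 82.1 CPM in naive EV 3 against 81.0 CPM in naive EV 5. Mir31 went another way from Mir205. It was lowest in the libraries numbered 5 in every group, at 332 CPM in primed ASC 5 and 934 CPM in naive ASC 5, for example.

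**Figure D2:**
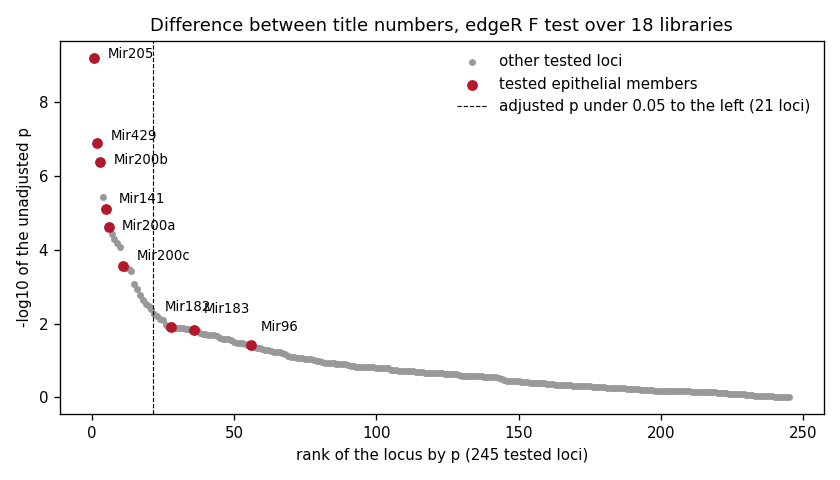
The 245 tested loci ranked by the p of the difference between title numbers (horizontal axis) against -log10 of the unadjusted p (vertical axis), with members in red. Mir205, Mir429 and Mir200b hold ranks 1 to 3, and Mir182, Mir183 and Mir96 lie right of the line that marks the 21 loci past the threshold.

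The same 6 loci were the most variable of all tested loci among libraries of 1 group. The pooled within-group SD of log2(CPM + 1) was 2.89 for Mir205, 2.58 for Mir200b, 2.53 for Mir429, 2.19 for Mir200c, 2.18 for Mir141 and 2.12 for Mir200a, which are ranks 1 to 6 of 245, against a median of 0.471. Mir96 followed at 1.23, rank 12, while Mir182 at 0.667 and Mir183 at 0.611 ranked 77 and 87. Many of these libraries held fewer than 10 counts of a miR-200 locus, so counting error is part of these SDs. Over the 18 libraries the profiles most like that of Mir205 were those of Mir200c (overlap 78.8) and Mir200b (76.3), followed by Mir184 (68.5) and Mir139 (66.7), against a median of 47.9. Over the 10 EV libraries the overlap with Mir205 was 90.8 for Mir200a, 90.0 for Mir141, 89.5 for Mir200b, 87.7 for Mir429 and 74.8 for Mir200c. Over all 18 libraries it was lower for Mir429 (54.3, rank 41), Mir200a (52.8, rank 54) and Mir141 (47.1, rank 133). Mir205 was chosen for this after its values were seen, and these loci share libraries and depth.

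Vesicles were compared with their parent cells to ask which small RNAs they carry. Mir141 and Mir96 were higher in EV than in ASC in both states. Mir200a passed the test in the naive and Mir429 in the primed comparison, and the difference between both comparisons did not pass for any member. The other 5 tested members passed in neither. Naive EV against naive ASC therefore gave 3 of 9 members higher and 0 lower, where 33.5% of the 245 loci were higher and 32.7% lower. Primed EV against primed ASC also gave 3 higher and 0 lower, where 35.9% were higher and 32.2% lower. The count of members higher was near the background share and the count lower, 0 of 9, was below it, but the low-count filter shaped both. Mir141, Mir96 and Mir200a had at most 7 counts in any ASC library, so they passed the filter through EV libraries. Mir429 passed it mainly through EV libraries too, with at most 1 count in any primed ASC library. Loci this rare in ASC could be tested only where EV held more, which also bears on the member medians that follow. The median log2 fold change of the 9 members was 0.70 in the naive comparison, against -0.24 for all loci, and 1.07 in the primed comparison, against 0.02 for all loci. Scaling by library totals alone shifted the median of all loci to -0.70 and -0.69, with 65 loci higher and 116 lower in the naive comparison and 58 higher and 118 lower in the primed one. With that scaling Mir182 and Mir183 passed as lower in naive EV, and Mir183 in primed EV.

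Mir141 had the largest fold change of the members in the naive comparison. It had 4, 4, 86, 70 and 20 counts in primed EV 1 to 5 and 2, 7, 192, 321 and 67 counts in naive EV 1 to 5. All 8 ASC libraries held 6 counts or fewer, with 2, 2, 1 and 1 in primed ASC 2 to 5 and 2, 6, 5 and 2 in naive ASC 1, 3, 4 and 5. As levels, these were 1.5 to 97.3 CPM in primed EV and 1.0 to 533.2 CPM in naive EV, against 1.2 to 5.4 CPM in primed ASC and 2.5 to 5.5 CPM in naive ASC. The groups overlapped at their low ends, through primed EV 2 and naive EV 1. Its log2 fold change was 5.28 (SE 1.35, adjusted p = 0.00198, edgeR) for naive EV against naive ASC, and 4.07 (SE 1.52, adjusted p = 0.0242) for primed EV against primed ASC. Scaled by depth, the summed counts of 589 in naive EV against 15 in naive ASC gave a ratio of 19.5 (95% interval 11.7 to 35.1, counting error only).

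The naive call of Mir141 held without any of the 18 libraries, at 4.11 to 5.54, and its primed call was lost without primed EV 3, primed ASC 2 or primed ASC 5 (adjusted p up to 0.0715) and with library totals alone (0.0524). limma-voom gave 2.49 in the naive comparison with adjusted p = 0.323 and ended the primed call as well (0.522).

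Mir200a, which shares the seed of Mir141, was at 0, 1.1, 31.7, 19.5 and 0 CPM in primed EV 1 to 5 and at 1.5, 1.2, 41.5, 116.3 and 13.2 CPM in naive EV 1 to 5. In cells it was at 0.9, 0, 12.5 and 0 CPM in primed ASC 2 to 5 and at 1.7, 3.7, 6.3 and 0 CPM in naive ASC 1, 3, 4 and 5. The ranges overlapped in both states. Its log2 fold change was 3.36 (SE 1.35, adjusted p = 0.0338) for naive EV against naive ASC and 2.46 (not past the threshold) for primed EV against primed ASC. The naive call was lost without naive EV 3, naive EV 4, naive ASC 1, naive ASC 3 or naive ASC 5, with a lowest value of 2.13 and an adjusted p of up to 0.151, and also with library totals alone (0.0559) and limma-voom (0.302).

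The loci with the other miR-200 seed divided. Mir429 had 113 counts over primed EV against 2 over primed ASC, a depth-scaled ratio of 16.8 (95% interval 4.55 to 141, counting error only), and a log2 fold change of 4.81 (SE 2.09, adjusted p = 0.0478). That call was lost without any 1 of 12 libraries (adjusted p up to 0.119), with relative log expression factors (0.0551), library totals alone (0.085) and limma-voom (0.642). In the naive comparison its value was 2.27, not past the threshold, but it passed with title number as a replicate block (2.38, adjusted p = 0.00194, edgeR). Mir200b was at 1.07 in the primed and 0.70 in the naive comparison, and neither passed. For Mir200b the depth-scaled ratio of summed counts in the naive comparison, 0.675, lay on the other side of 1 from the fitted value. Mir200c was at 0, 0, 4.5, 8.7 and 8.3 CPM in primed EV 1 to 5 and at 2.0, 0, 24.4, 93.0 and 1.7 CPM in naive EV 1 to 5. It was at 3.6, 0, 24.9 and 0 CPM in primed ASC 2 to 5 and at 1.7, 42.1, 55.1 and 11.1 CPM in naive ASC 1, 3, 4 and 5. Its log2 fold changes of -0.33 in the primed and -0.28 in the naive comparison did not pass.

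**Figure D3:**
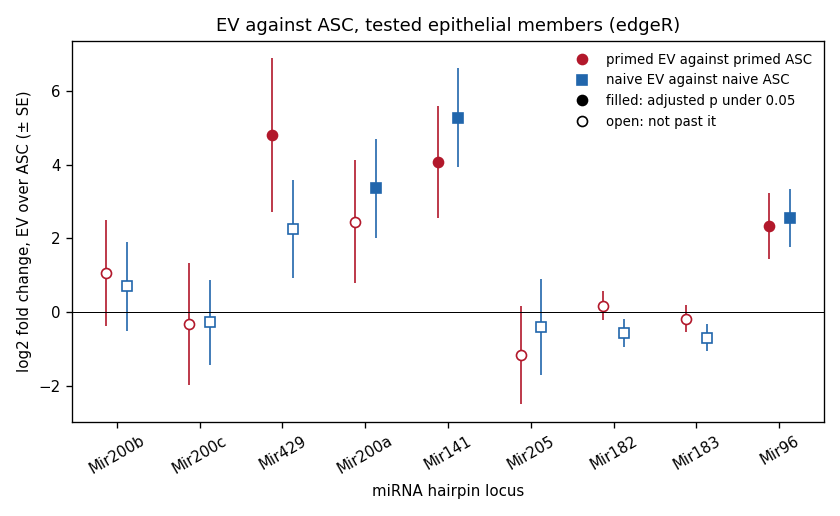
Fitted log2 fold change of EV over ASC (vertical axis, bars are SE) for the 9 tested members, for primed EV against primed ASC and naive EV against naive ASC, with filled markers where the adjusted p was under 0.05. Mir141 and Mir96 are filled in both comparisons, while Mir200b, Mir200c, Mir205, Mir182 and Mir183 are open in both.

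The balance between both hairpins of the 490 bp cluster can be read within a library, with no scaling between libraries, and it differed between vesicles and cells in the naive libraries numbered 3 and 4. Mir141 held 95.6% of the counts of Mir141 and Mir200c in primed EV 3 and 89.7% in primed EV 4. It held 87.7% in naive EV 3 (exact 95% interval 82.6 to 91.7, counting error only) and 85.1% in naive EV 4. In the naive ASC libraries of the same numbers it held 11.5% (4.35 to 23.4) and 7.58% (2.51 to 16.8). Summed over libraries, Mir141 and Mir200c had 184 and 16 counts in primed EV and 589 and 88 in naive EV, against 6 and 10 in primed ASC and 15 and 117 in naive ASC. The other ASC libraries held 1 to 11 counts of the pair and their shares ran from 14.3% to 100%, the last in primed ASC 3 and 5. In the libraries numbered 1+2 the order was the other way, at 33.3% of 6 counts in naive EV 1 and 66.7% of 3 counts in naive ASC 1. This balance was picked out after the values were seen and is given with no test.

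Taken by seed over all 5 family loci, the hairpins with seed AACACUG (Mir200a and Mir141) held 30.8% to 77.8% of the family counts in primed EV and 45.2% to 51.0% in naive EV. They held 11.1% to 25.0% in primed ASC and 3.83% to 37.5% in naive ASC. No EV library overlapped an ASC library of its own state, but the primed ASC libraries held 5 to 18 family counts each and naive ASC 1 held 8. In the libraries with more than 100 family counts the shares were 46.7% and 41.7% in primed EV 3 and 4, and 46.2%, 45.2% and 51.0% in naive EV 3, 4 and 5, against 4.85% and 3.83% in naive ASC 3 and 4. This split, too, was seen before it was counted and has no test. RNA from EV and ASC was isolated with different kits, so vesicle and isolation method cannot be told apart in the split.

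**Figure D4:**
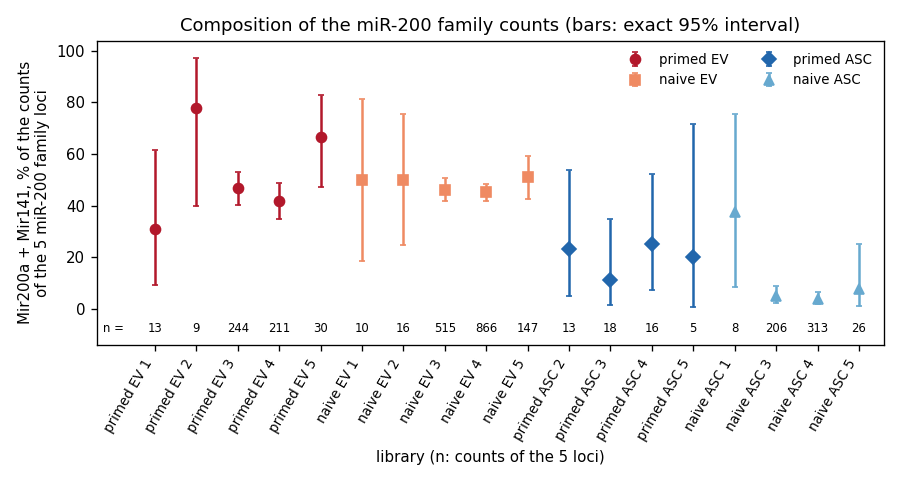
Share of the counts of the 5 miR-200 family loci held by Mir200a and Mir141 (vertical axis, percent) in each of the 18 libraries, with exact 95% intervals for counting error and the family count of each library beneath. The EV libraries lie at 30.8% to 77.8%, and naive ASC 3 and 4, with 206 and 313 counts, at 4.85% and 3.83%.

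Mir205 did not pass the test in either comparison of EV with ASC, at -1.18 in the primed and -0.41 in the naive state. With title number as a replicate block it passed as lower in primed EV (-1.18, adjusted p = 0.0183, edgeR). Between an EV and an ASC library of the same state and title number there were 9 pairs. In these, Mir205 was higher in EV in 2 and lower in 7, with an EV over ASC ratio of 0.121 to 1.59 and a median of 0.759. Over the same pairs Mir141 was higher in EV in 7 of 9, with a ratio of 0.286 to 118 and a median of 18.3. In the ASC libraries alone Mir141 did not pass between title numbers (adjusted p = 0.973, edgeR), where Mir205 did. Primed ASC 5 enters 2 of the 9 pairs, with primed EV 1 and with primed EV 5. The pairs are given as a description, since what the number marks is not stated.

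Mir182 and Mir183 of the miR-183 cluster were less uneven than Mir205, with at most 4.11-fold between libraries of 1 group for Mir182. In both naive groups the libraries numbered 3 and 4 held the highest Mir182, but not in the primed groups. Mir182 was at 7491, 3588, 7276, 6752 and 7687 CPM in primed EV 1 to 5 and at 2745, 3644, 9985, 11280 and 4506 CPM in naive EV 1 to 5. It was at 3109, 5628, 4259 and 10281 CPM in primed ASC 2 to 5 and at 8274, 13530, 9534 and 6859 CPM in naive ASC 1, 3, 4 and 5. All groups overlapped. Its log2 fold change was 0.17 for primed EV against primed ASC (-0.54 with library totals alone) and -0.57 for naive EV against naive ASC, and neither passed. Mir183 averaged 712 ± 186 CPM in primed EV and 730 ± 433 CPM in naive EV (SD, n = 5 each), and 807 ± 368 CPM in primed ASC and 1180 ± 278 CPM in naive ASC (SD, n = 4 each). Its log2 fold changes of -0.18 in the primed and -0.70 in the naive comparison did not pass, but the naive one passed without naive EV 4 (-1.03, adjusted p = 0.016) or primed ASC 5 and with limma-voom (-0.90, 0.0365). With library totals alone, which lowered the median of all loci to -0.70 in the naive and -0.69 in the primed comparison, Mir182 passed as lower in naive EV (-1.08) and Mir183 as lower in primed EV (-0.90) and naive EV (-1.22). Mir182 and Mir183 had a profile overlap of 94.8, and Mir182 held 84.7% to 91.2% of the cluster's counts in every library.

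Mir96, the third hairpin of the cluster, passed the test of EV against ASC in both states. It was at 16.9, 9.7, 19.2, 20.6 and 18.7 CPM in primed EV 1 to 5 and at 8.8, 7.1, 29.8, 38.2 and 29.8 CPM in naive EV 1 to 5. It was at 0, 0, 12.5 and 5.0 CPM in primed ASC 2 to 5 and at 1.7, 5.5, 6.3 and 0 CPM in naive ASC 1, 3, 4 and 5. The naive groups did not overlap, as for 30.2% of all loci in that direction, but the gap was small. The lowest naive EV library held 6 counts, or 0.000771% of its total, and the highest naive ASC library 7 counts, or 0.000768%. The primed groups overlapped through primed ASC 4, where 12.5 CPM was 3 counts. Its log2 fold change was 2.34 (SE 0.89, adjusted p = 0.0265) for primed EV against primed ASC and 2.56 (SE 0.78, adjusted p = 0.00762) for naive EV against naive ASC. The naive call held without any of the 18 libraries, at 2.23 to 3.01, and the primed call was lost without primed ASC 2 or 3 (adjusted p up to 0.101) and with library totals alone (0.0966). In all 9 pairs of the same state and number, primed ASC 5 counted in 2 of them, Mir96 was higher in EV. It held 0.173% to 0.597% of the cluster's counts in EV libraries and at most 0.248% in ASC libraries.

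**Figure D5:**
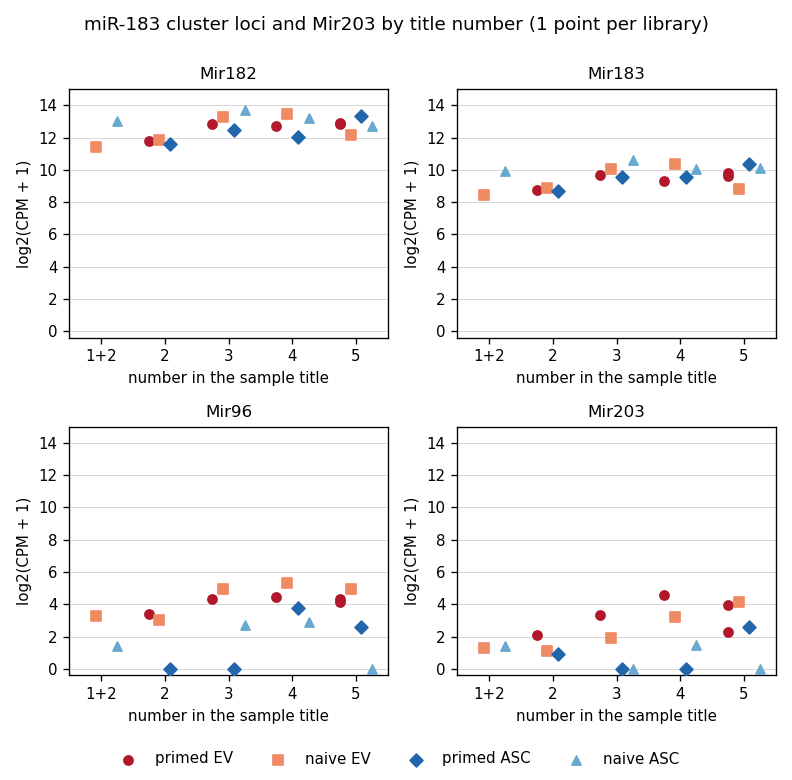
Level of Mir182, Mir183, Mir96 and Mir203, as log2(CPM + 1) on the vertical axis, against the number in the sample title, with 1 point per library and a colour and marker for each group. Mir182 and Mir183 of all 4 groups overlap, while naive EV libraries lie above naive ASC libraries for Mir96, with a lowest naive EV value of 7.1 CPM and a highest naive ASC value of 6.3 CPM.

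Mir203 was near the limit of detection. It had 47 counts over primed EV and 22 over naive EV, against 5 over primed ASC and 3 over naive ASC. Its levels were 3.8, 3.4, 9.1, 22.7 and 14.6 CPM in primed EV 1 to 5 and 1.5, 1.2, 2.7, 8.3 and 16.5 CPM in naive EV 1 to 5. ASC libraries held 0.9, 0, 0 and 5.0 CPM in primed ASC 2 to 5 and 1.7, 0, 1.8 and 0 CPM in naive ASC 1, 3, 4 and 5. A depth-scaled ratio of summed counts of 2.80 (95% interval 1.12 to 9.01) for primed EV against primed ASC and 3.64 (1.10 to 19.0) for naive EV against naive ASC compares these libraries' reads and covers counting error only.

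The tested miRNAs of blood and endothelium were higher in EV than in ASC, and 1 of them, Mir150, differed between title numbers. The 5 tested loci of a haematopoietic and red cell list were all higher in EV in both states, with Mir223 of myeloid cells at 4.97 in the primed and 6.29 in the naive comparison. Of all loci 35.9% were higher in the primed and 33.5% in the naive comparison. Their summed level was 1653 to 9052 CPM in primed EV and 3935 to 17178 CPM in naive EV, against 75.8 to 369 CPM in primed ASC and 91.5 to 156 CPM in naive ASC. The highest was naive EV 4, also the highest EV library for Mir205 and all 5 miR-200 loci. Of the 5, Mir150 differed between title numbers (adjusted p = 0.0468, edgeR), at a background of 8.57% of loci. The others did not pass, at 0.0629 for Mir223, 0.0762 for Mir142b, 0.0998 for Mir144 and 0.115 for Mir451a. Endothelial Mir126a was higher in EV in both states, at 4.46 and 5.59, and did not pass between title numbers. Of 6 neural loci 4 were at 0 in all libraries (Mir9-1, Mir9-2, Mir124a-1 and Mir124a-3) and none passed the filter, nor did Mir122 of liver or any of 7 muscle loci, of which Mir133a-1 and Mir133a-2 were at 0. The part of blood or endothelial RNA in the member values was not tested.

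A further list of 13 miRNA loci linked to epithelia, none of them members, had 5 that could be tested (Mir31, Mir184, Mir192, Mir34b and Mir34c), and Mir449b was at 0 in all libraries. Mir192, abundant in gut and kidney epithelium, was higher in EV at 2.46 in the primed and 2.00 in the naive comparison. Mir34c, of ciliated cells and germ cells, was higher at 1.42 and 1.58. Mir184, of cornea and lens, was lower in EV at -1.65 and -2.87, and Mir34b at -1.19 and -0.54. Mir31 did not pass in either comparison. Counts for this list were thus 2 higher and 2 lower of 5 in each comparison. Among all loci 33.5% were higher and 32.7% lower in the naive comparison, and 35.9% and 32.2% in the primed one. The calls of Mir34b in the naive comparison (adjusted p = 0.0455, edgeR) and Mir184 in the primed one (0.0471) were close to the threshold.

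Primed and naive libraries were compared to ask what interferon gamma changed. In vesicles 0 of 9 members passed, at a background of 0.816% of loci, and 0 members had an unadjusted p under 0.05 in edgeR, where 25 of all loci did. DESeq2 and limma-voom also called 0 members. With title number as a replicate block, however, Mir205 (-1.90, adjusted p = 0.00968, edgeR) and Mir200b (-2.31, 0.0196) passed as lower in primed EV. In that fit 2.86% of loci passed. Without the block, fitted log2 fold changes were below 0 for 8 of 9 members, with a median of -1.64 against 0.02 for all loci (-0.25 with library totals alone). Mir200c was at -2.55, Mir200b at -1.97, Mir205 at -1.68 and Mir182, the exception, at 0.028, which fell below 0 with library totals alone. In cells 0 of 9 passed, at a background of 10.2%, with 0 members at an unadjusted p under 0.05 where 57 loci were, and 0 calls by DESeq2 and limma-voom. All 9 fitted values were below 0, with a median of -0.73 against -0.12 for all loci, and with Mir200b at -2.33 and Mir205 at -0.91. With DESeq2 7 of the 9 were below 0. Mir205 averaged 200 ± 230 CPM in primed EV and 645 ± 800 CPM in naive EV (SD, n = 5 each), so its SDs exceeded its means.

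In cells Mir205 averaged 462 ± 490 CPM when primed and 853 ± 891 CPM when naive (SD, n = 4 each). The groups did not hold the same title numbers. Primed EV held the number 5 in 2 libraries and no 1+2, and primed ASC held 2 where naive ASC held 1+2. Mir429 had the lowest fitted value in cells, at -4.05, with 2 counts over primed ASC against 63 over naive ASC, and it did not pass, but did in a fit of these groups alone (-3.96, adjusted p = 0.0484) and with no low-count filter (-4.06, 0.000172). The difference between the priming effects in EV and in ASC passed for 0 of 9 members and 0% of loci, with 0 members at an unadjusted p under 0.05 where 26 loci were, and DESeq2 and limma-voom called 0 members.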

How the data were processed

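Per the labels' protocols, 5 µl of RNA entered the TruSeq Small RNA kit. The authors deposited 1 table of raw counts per hairpin locus and library, made with featureCounts 1.5.3 on Ensembl release 76 without strand, per the file headers; the submitters' processing notes name STAR 2.0.4, GRCm38 and featureCounts 1.45. How reads were trimmed and mapped is not stated. Of 2009 loci, 1899 matched GENCODE by ID and 110 did not, and 17 of the matched loci were given RefSeq names. Members and lists were chosen with earlier results of these data known. Each member was named.

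Counts of all 18 libraries entered 1 edgeR 4.0.16 quasi-likelihood fit of 4 groups (R 4.3.3, TMM, filterByExpr with a minimum count of 10, 245 loci holding 99.96% of counts, Benjamini-Hochberg over 245, threshold 0.05). Scripts were tested on simulated data. Alternatives were other scalings, other filters, DESeq2 1.42.0, limma-voom (limma 3.58.1), thinning to 180812 counts, 2-group fits, replicate blocks and leaving out each library. Title number was added as a term after values were seen. Exact intervals (95%) cover counting error only and treat each read as independent. PCR reads are not independent molecules, so the intervals may be too narrow even for that. Libraries held 180812 to 3052942 counts, so 1 count was worth the most in the shallowest, primed ASC 4.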

Additional observations from a re-analysis of the deposited data

Results flagged for a closer look

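In 4 of the 40 sets of values (10 loci in 4 groups), 1 library stood apart from the rest of its group by Dixon's criterion. Chance flags about 1 in 20 such sets. Mir200a was at 12.45 CPM in primed ASC 4, which was 3 counts, and the nearest other primed ASC library was at 0.909 CPM. Mir200c was at 24.9 CPM in the same library, which was 6 counts, against 3.64 CPM in the nearest other. That library was the shallowest of the 18. Mir200c was at 93.0 CPM in naive EV 4, from 56 counts, and the nearest other naive EV library was at 24.4 CPM. Mir182 was at 3588 CPM in primed EV 2, the lowest of its group, and the nearest other was at 6752 CPM.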

How the results depend on the processing

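Counts of called members moved with the low-count filter, thinning and the libraries included, and low counts limit every miR-200 value. Naive EV against naive ASC had 3 called members in the reported fit, 6 with no filter, 1 with a minimum count of 30 (5 members tested) and 0 with libraries thinned to the shallowest (4 tested), and 2 to 4 with each library left out. Primed EV against primed ASC had 3, against 5 with no filter, 1 with a minimum count of 30 or limma-voom, and 0 after thinning. Library totals alone ended all 3 calls and gave 1 other, Mir183 as lower in EV (-0.90, adjusted p = 0.0219, edgeR). Leaving out libraries gave 0 to 3 calls, fewest without primed EV 3, primed ASC 2, 3 or 5. In the naive comparison, library totals alone ended the call of Mir200a and added Mir182 (-1.08) and Mir183 (-1.22) as lower in EV. The members added with no filter were Mir429, Mir182 and Mir183 in the naive comparison and Mir200a and Mir205 in the primed one. With no filter 4 members passed in primed EV against naive EV and 4 in primed ASC against naive ASC, both from 0, and that fit used no spread of a locus's own (infinite prior degrees of freedom, against 5.74). Fitting the 2 groups alone called 1 member, Mir429, in primed ASC against naive ASC. Leaving out any library kept 0 calls in both priming comparisons, and no alternative run called a member in the difference of priming effects. The difference between title numbers was called for 6 members. With a minimum count of 30 it was called for 3 of the 5 tested, and after thinning for 3 of the 4 tested (Mir205, Mir200b and Mir182). Mir200a, Mir429 and Mir200c were not tested in those fits. It was called for 1 member in ASC libraries alone, and for 5 to 7 leaving out libraries.

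Groups share numbers in their labels, but same-numbered libraries did not all deviate together. Their correlations over loci were -0.16 to 0.52 (18 of 25 pairs over 0.1 by title number, 19 of 24 by the number in the source name), and 6 and 7 of 18 libraries correlated best with their own number. With title number as a replicate block, 2 members passed as lower in primed EV against naive EV, Mir200b and Mir205, where 2.86% of loci passed. Mir205 passed in primed EV against primed ASC (-1.18, adjusted p = 0.0183) and Mir429 in naive EV against naive ASC (2.38, 0.00194; 2.22, 0.0119 with the source number as block). The block left the other counts of called members within 1.5 times of the value without it.

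Directions of values that did not pass were less stable. With limma-voom, Mir200b turned to -1.79 and Mir429 to -0.50 in naive EV against naive ASC, and Mir200b to -0.26 in primed EV against primed ASC. In primed EV against primed ASC, Mir182 turned to -0.54 with library totals alone and to -0.0714 with a minimum count of 30. In primed EV against naive EV, Mir182 (0.028) turned to -0.23 with library totals alone, -0.0653 with a minimum count of 30, -0.0523 after thinning, -0.0381 with relative log expression factors and with DESeq2, and -0.042 with the title number block and with the 2 groups alone. Leaving out libraries spread Mir200b over -0.49 to 1.56, Mir200c over -1.95 to 0.28 and Mir205 over -1.38 to 0.38 in naive EV against naive ASC. It spread Mir200c over -0.98 to 1.19, Mir182 over -0.037 to 0.56 and Mir183 over -0.40 to 0.12 in primed EV against primed ASC, and Mir182 over -0.0759 to 0.33 in primed EV against naive EV. The cause of these changes was not tested.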
